A study of Mus musculus with 8 samples.

Results

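The sarcomeric myosin heavy chains are the motor proteins of the thick filament, and their genes were examined here by DNA methylation in resting muscle stem cells from mice of 2 ages. The members are 9 genes, taken by name: Myh3, Myh2, Myh1, Myh4, Myh8 and Myh13 in a cluster on chromosome 11, Myh6 and Myh7 side by side on chromosome 14, and Myh7b on chromosome 2. They are 9 of 21409 protein-coding genes of chromosomes 1 to 19 and X that could be measured. Each gene was taken as its RefSeq span plus 5 kb on each side, and together these windows held 8281 of the 32984740 cytosine positions listed on those chromosomes. The choice of members used their names and positions and no methylation value.

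Whole-genome bisulfite sequencing reads methylation at each cytosine, because bisulfite converts unmethylated cytosine and leaves methylated cytosine in place. The cells were quiescent muscle stem cells (satellite cells) of the limb, sorted for VCAM and against CD45 (blood), CD31 (endothelium) and Sca1. They came from male C57BL/6 mice aged 4 months (young, 4 libraries) or 22 months (old, 4 libraries), 1 animal per library, with no allele or agent named for either age. Per the labels, 150 ng of DNA entered each library and each library was sequenced to between 115000000 and 200000000 reads. The deposited values are 1 methylation level per cytosine and age, a group value of the authors with no value per animal, so the levels below carry no SD and the depth behind a single cytosine is unknown. Levels are equal over neighbouring cytosines in many places, so neighbours are not separate measurements, and how they were pooled or smoothed is not stated in the sources used here. In a population of cells, an intermediate level cannot be told apart from a mixture of cells or alleles with high and low methylation.

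A muscle stem cell at rest does not build sarcomeres. When it is activated and differentiates, it fuses into fibres that first use the embryonic chain Myh3 and the perinatal chain Myh8. Mature limb fibres use the fast chains Myh2 (type IIa), Myh1 (type IIx) and Myh4 (type IIb) or the slow chain Myh7, which is also a chain of the heart ventricle. Myh6 is the alpha chain of the heart, Myh13 the chain of eye and laryngeal muscles, and Myh7b an ancient slow-type chain. Methylation of CpG sites is usually low at active promoters and enhancers and high over the rest of the genome. The adult and developmental chains of chromosome 11 are arranged in tandem, and fibres use the fast genes of the cluster largely one at a time.

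The sequence just before each start lies in the start windows whose levels are given further on. The 250 bases upstream of the start are printed for 7 of the 9 genes, from RefSeq on GRCm38.p6, 5′ to 3′ on the strand of the gene, with each CpG in capitals. They were chosen because the level before the start ran from 11.7% to 78.8% among them in young cells. They lie at chr11:67078050-67078299, chr11:67170777-67171026, chr11:67199852-67200101, chr11:67237562-67237811, chr11:67276874-67277123 and chr11:67326853-67327102, all on the plus strand, and at chr14:54994627-54994876 on the minus strand.
Myh3: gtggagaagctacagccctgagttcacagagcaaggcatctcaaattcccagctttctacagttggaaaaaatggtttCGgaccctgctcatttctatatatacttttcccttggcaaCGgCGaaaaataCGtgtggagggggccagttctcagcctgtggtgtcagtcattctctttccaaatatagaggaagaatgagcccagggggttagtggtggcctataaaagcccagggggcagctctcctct
Myh2: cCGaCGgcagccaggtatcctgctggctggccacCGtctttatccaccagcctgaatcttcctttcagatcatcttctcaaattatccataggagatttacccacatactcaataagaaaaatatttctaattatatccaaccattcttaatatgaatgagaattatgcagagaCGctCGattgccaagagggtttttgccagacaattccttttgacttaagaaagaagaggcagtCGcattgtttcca
Myh1: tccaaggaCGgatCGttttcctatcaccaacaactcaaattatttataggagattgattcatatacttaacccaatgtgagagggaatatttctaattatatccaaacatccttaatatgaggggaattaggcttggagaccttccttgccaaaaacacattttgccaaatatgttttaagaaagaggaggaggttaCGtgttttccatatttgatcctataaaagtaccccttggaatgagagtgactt
Myh4: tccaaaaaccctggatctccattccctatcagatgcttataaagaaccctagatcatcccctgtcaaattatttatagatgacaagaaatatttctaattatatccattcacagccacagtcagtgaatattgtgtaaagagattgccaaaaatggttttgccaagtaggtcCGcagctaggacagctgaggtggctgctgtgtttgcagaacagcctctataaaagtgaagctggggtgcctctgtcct
Myh8: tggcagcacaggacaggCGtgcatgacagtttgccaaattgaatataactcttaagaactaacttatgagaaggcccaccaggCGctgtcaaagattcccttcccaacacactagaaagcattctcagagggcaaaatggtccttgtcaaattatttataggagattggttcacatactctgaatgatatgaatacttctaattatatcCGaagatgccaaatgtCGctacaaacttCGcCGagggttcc
Myh13: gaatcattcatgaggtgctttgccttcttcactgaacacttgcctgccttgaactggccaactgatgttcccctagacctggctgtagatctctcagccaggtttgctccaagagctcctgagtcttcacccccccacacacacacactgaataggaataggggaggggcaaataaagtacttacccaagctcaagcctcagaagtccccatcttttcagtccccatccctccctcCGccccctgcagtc
Myh7: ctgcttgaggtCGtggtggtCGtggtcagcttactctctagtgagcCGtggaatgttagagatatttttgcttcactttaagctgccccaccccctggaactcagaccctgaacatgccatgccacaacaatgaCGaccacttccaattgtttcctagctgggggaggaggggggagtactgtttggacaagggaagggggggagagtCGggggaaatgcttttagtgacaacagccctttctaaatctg
These stretches are poor in CpG. Myh2 and Myh8 held 6 CpGs each, Myh7 held 5, Myh3 held 4, Myh1 held 3, and Myh4 and Myh13 held 1 each. Of the genes not printed, Myh7b held 3 and Myh6 held 2. Across all genes, starts with few CpGs were the more methylated ones. The median level within 1 kb of the start was 65.3% in young cells for the 1721 genes with 0 to 1 CpGs, 62.3% for the 1976 genes with 2 to 3, 43.3% for the 1979 genes with 4 to 6 and 4.13% for the 3644 genes with more than 20.

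Motifs of muscle promoters were searched on both strands of the same 250 bases in 17274 genes. The letters TATAAA were present in 4 of the 9 members, against 12.5% of all promoters, and stood 29 bases before the start in Myh3, 31 in Myh4 and 32 in Myh1. Myh8 had them 96 bases before its start. A MEF2 motif, the binding motif of the MEF2 factors that act in muscle differentiation, was present in Myh1, Myh4 and Myh8, against 2.63% of all promoters. It began 211, 182 and 99 bases before their starts, where it overlaps a TATAAA match in each. The E-box, CANNTG, the motif of the MyoD family, was present in 7 of 9 members and in 62.7% of all promoters. A CArG box, the motif of serum response factor, was present in Myh4 alone among the members and in 1.41% of all promoters. A match is a run of letters and says nothing of binding.

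The myosin genes were highly methylated along their length at both ages, and the differences between old and young cells ran from -0.0291 to 1.37 points over the 9 genes. The mean over all 8281 positions was 71.9% in young cells against 72.4% in old, a difference of 0.483 points, while the mean over the genome was 64.1% in young cells against 64.6% in old, a difference of 0.473 points. Old cells had the higher value at 53.0% of the positions in the members and at 53.9% in the genome. The share of positions whose ages differed by less than 10 points was 98.0% in the members and 92.7% in the genome. Among the members, 8 of 9 windows had the higher mean in old cells, against 73.9% of all genes, and 4 of 9 did so once the genome-wide difference was taken off.

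The 3 fast chains were near each other in level. In this paragraph and the next, the brackets give the gene alone. The levels and counts are those of its window, the gene plus 5 kb on each side. The windows of Myh2 and Myh1 overlap, as do those of Myh6 and Myh7. Myh2 (chr11:67171027-67197517) was at 79.4% in young cells against 79.9% in old over 858 positions, and Myh1 (chr11:67200102-67224577) at 79.1% and 79.7% over 682. Myh4 (chr11:67237812-67260447) was at 77.2% and 78.6% over 715 positions, and its difference of 1.37 points was the largest of the 9, at percentile 91.2 of the differences of all genes. All of these windows lay at percentile 97.9 or above of the levels of all genes, whose median was 60.2% in young cells. The perinatal chain Myh8 (chr11:67277124-67308634) belonged with them, at 79.8% in young cells against 80.2% in old over 866 positions.

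The embryonic chain stood apart from its neighbours in the cluster. Myh3 (chr11:67078273-67102291) was at 65.1% in young cells against 65.4% in old over 1145 positions, at percentile 67.8 of all genes. Myh13 (chr11:67327103-67371587), at the other end of the cluster, was at 74.1% and 74.6% over 1045 positions. The heart chains were alike in level over their overlapping windows. Myh6 (chr14:54941921-54968017) was at 69.9% and 70.1% over 1060 positions and Myh7 (chr14:54970684-54994626) at 70.7% at both ages over 893. Without the flanks they were further apart, Myh6 at 70.7% in young cells against 71.0% in old and Myh7 at 76.5% and 76.1%. Myh7b (chr2:155611243-155634307) was the least methylated member, at 60.7% and 61.5% over 1327 positions, which is percentile 52.3 of all genes. The order of the levels was the same at both ages, from Myh8 through Myh2, Myh1, Myh4, Myh13, Myh7, Myh6 and Myh3 down to Myh7b. With no value per animal, neighbours in this order cannot be told apart by their spread. The order changed without the flanks, where Myh2, at 83.9% in young cells against 84.1% in old, was above Myh8, at 81.9% and 82.5%.

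The difference between the ages was tested per gene from the authors' deposited p-values, by 2 times their median over the window with Benjamini-Hochberg adjustment over 21409 genes. None of the 9 members was called, with an adjusted p of 1 for each, and 0% of all genes were called. At an unadjusted p under 0.05 the count was 0 of 9 members and 1 gene of all, or 0.00467%. A combination of the same p-values that is led by their smallest ones (the Cauchy combination) called 5 of 9 members, Myh1, Myh2, Myh3, Myh13 and Myh7, against 41.4% of all genes. Those are the 5 members that hold a cytosine below the authors' FDR of 0.05. A test by the median can miss a change confined to a minority of a gene's cytosines.

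**Figure D1:**
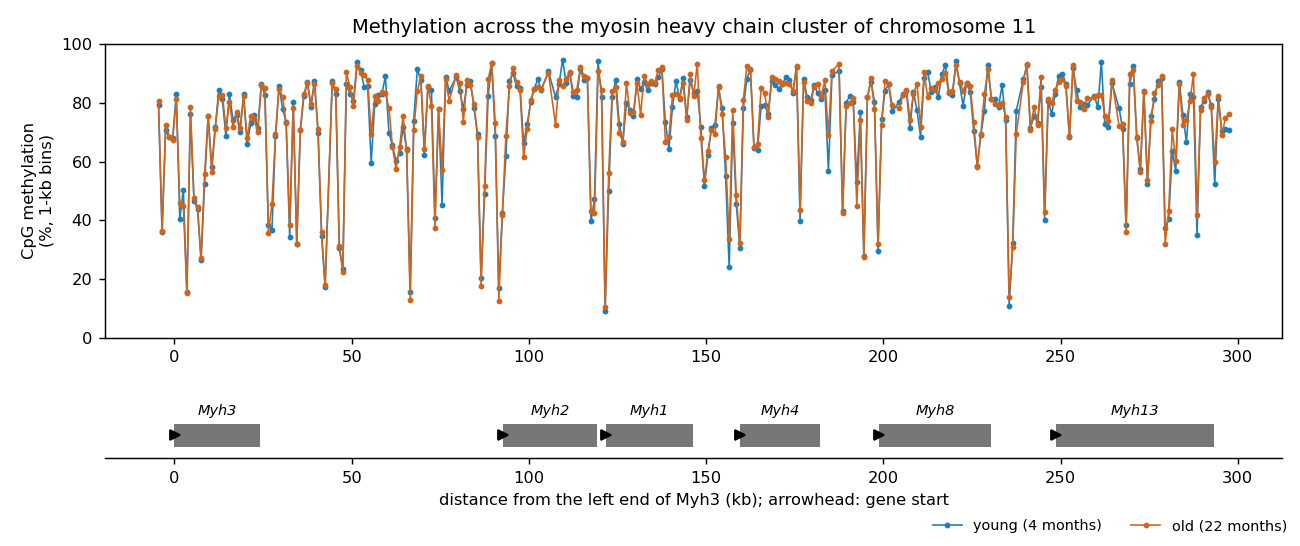
CpG methylation (%, vertical axis) in 1-kb bins along the chromosome 11 cluster, against the distance from the left end of Myh3 (kb), for young (blue) and old (orange) cells, with gene spans as bars and starts as arrowheads. The lines run close together along most of the cluster, where the level over the members was 75.1% in young cells against 75.7% in old. Some single bins are further apart, such as 45.2% in young against 57.3% in old cells at 75.5 kb. Both lines dip at the same places, among them the starts of Myh2, Myh1, Myh4 and Myh8.

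**Figure D2:**
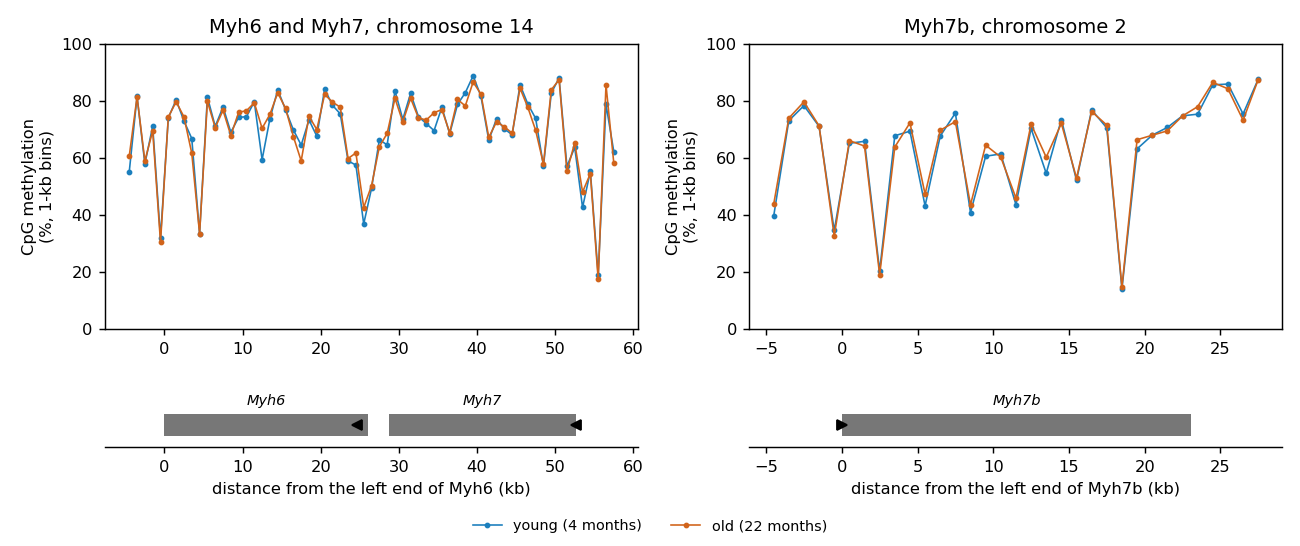
The same plot for Myh6 and Myh7 on chromosome 14 (left) and Myh7b on chromosome 2 (right), as CpG methylation (%) in 1-kb bins against distance (kb). The chromosome 14 pair was at 70.8% in young cells against 70.9% in old, and Myh7b, at 60.7% and 61.5%, has deep dips inside the gene.

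The starts of the fast and perinatal genes were dips in this methylated landscape, and the starts of Myh3 and Myh13 were not. Over 1 kb on each side of the start, Myh1 was at 41.5% in young cells against 46.8% in old (34 positions), Myh2 at 48.8% and 50.8% (48 positions) and Myh4 at 49.2% and 52.1% (56 positions). Myh8 was at 48.5% and 49.1% (47 positions). Myh3 was at 77.1% and 76.1% (42 positions), and Myh13 was the most methylated start, at 85.1% and 85.3% (33 positions). The starts of Myh3 and Myh13 were thus above the median of 66.7% that young cells had over the 4642 starts of the genome with more than 40% methylation, and the other chromosome 11 starts below it.

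The starts of the heart and slow chains lay between those of Myh1 and Myh3. Myh6 was at 44.3% in young cells against 46.3% in old (39 positions), Myh7 at 57.5% and 59.8% (50 positions) and Myh7b at 52.9% and 52.7% (30 positions). For the number of CpGs they hold, the starts of Myh1, Myh4 and Myh6 were below the lower quartile of all genes in young cells (45.6% for 2 to 3 CpGs and 56.0% for 0 to 1). Myh3 was above the upper quartile of 66.9% for genes with 4 to 6 CpGs, and Myh13 above that of 72.8% for genes with 0 to 1. The starts of Myh2, Myh8, Myh7 and Myh7b lay within the quartiles of their class.

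**Figure D3:**
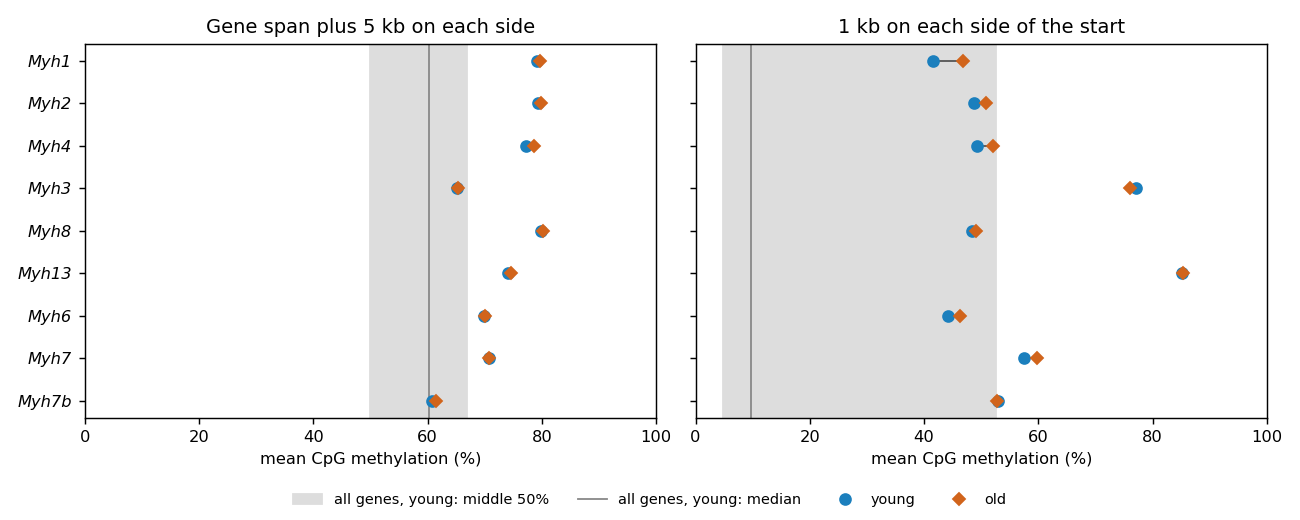
Mean CpG methylation (%) of each member in young (circles) and old (diamonds) cells, over the gene span plus 5 kb (left) and over 1 kb on each side of the start (right), with the median and the quartiles of all genes in young cells as a line and a band. All members but Myh3 and Myh7b lie above the band of 49.8% to 66.9% on the left, and Myh3 and Myh13 lie far above the other starts on the right.

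Old cells had the higher mean at 7 of 9 member starts, the exceptions being Myh3 and Myh7b. At the 4642 starts with over 40% methylation in young cells, old cells were higher at 58.9% of them, with a median difference of 0.560 points. The largest member difference was that of Myh1, 5.29 points, at percentile 93.2 of the differences of these 4642 starts. None of the members was called by the median test over 15906 starts, where 0% of all starts were called. At an unadjusted p under 0.05 the count was 0 members and 5 starts of all, or 0.0314%, and the Cauchy combination called 0 members and 1.18% of all starts. In the authors' deposited table, 1 cytosine within 1 kb of a member start had a p below 0.05, at Myh1, with p = 0.0254. The member start windows held 30 to 56 positions each. Such a p was given there for 2.61% of all positions and 0.845% of the members' positions.

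**Figure D4:**
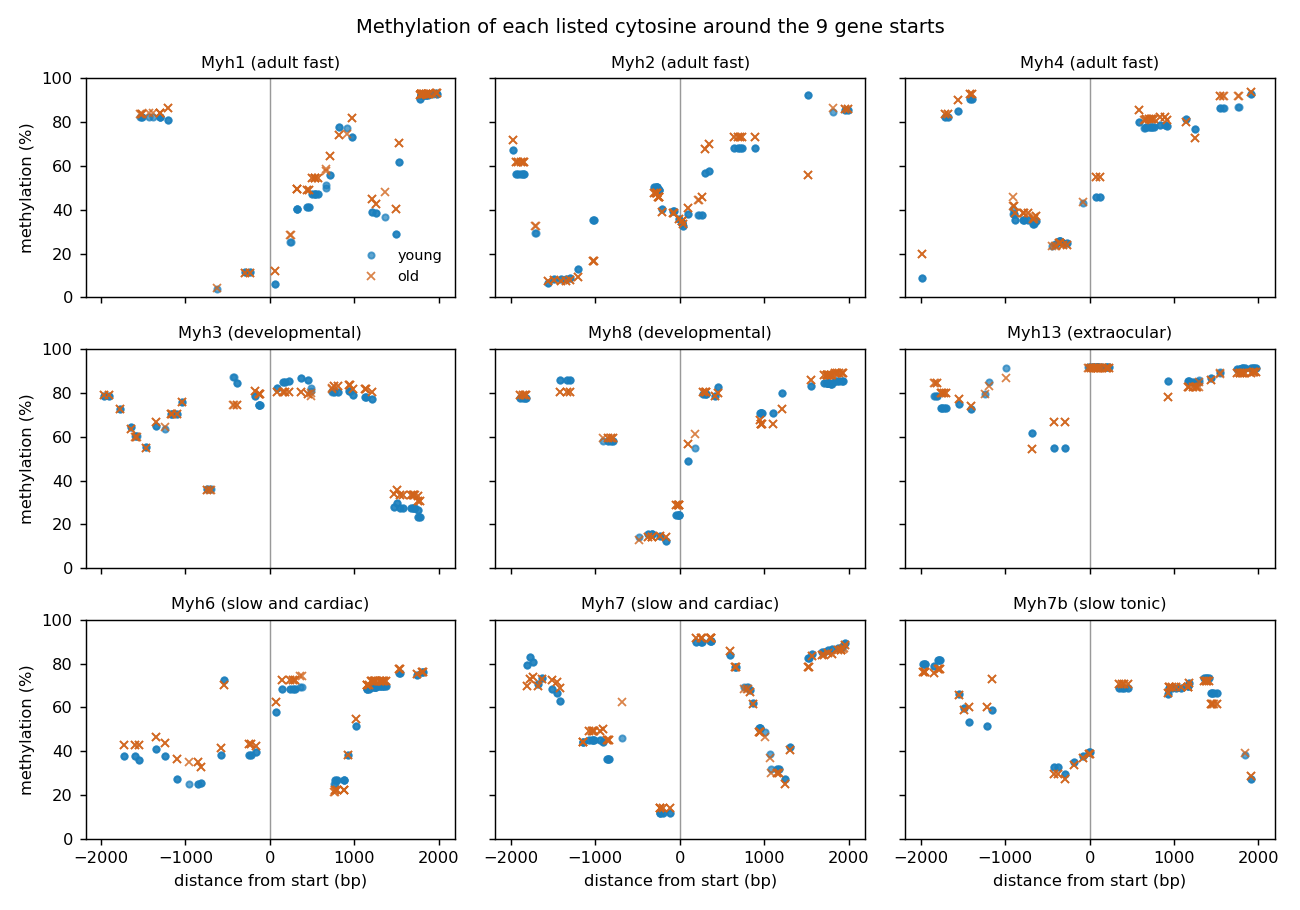
Methylation (%, vertical axis) of each listed cytosine within 2000 bp of the 9 starts, against its distance from the start (bp), young as circles and old as crosses. Myh7 and Myh8 step up across the start in both ages, Myh1 climbs after it, and Myh13 is at 91.7% in young cells against 91.5% in old over the 500 bases after it.

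Within the start windows of Myh1 and Myh4, methylation was lower before the start than after it. Over the 500 bases before the start of Myh1, 4 positions were at 11.8% in young cells against 11.1% in old, and over the 500 bases after it, 12 positions were at 32.4% and 39.6%. Myh4 was at 26.3% and 25.6% before (14 positions) and at 45.7% and 54.9% after the start (4 positions). The 4 positions of Myh1 before its start shared 1 level, as did the 4 of Myh4 after its start. The differences before the start were small, at -0.63 points in Myh1 and -0.71 in Myh4. Over these 500 bases on each side, the old value was thus the lower one before the start and the higher one after it in both genes. The same held for Myh2, at 45.6% and 43.6% before and 41.0% and 46.5% after the start, but its low point lay further upstream. Between 2000 and 1000 bases before the start of Myh2 the mean was 33.4% in young cells against 33.0% in old. The lowest position there was at 6.60% in young cells against 7.25% in old. In Myh1 and Myh4 the old value was the higher one further upstream. Between 2000 and 1000 bases before the start, Myh1 was at 82.1% and 84.4% and Myh4 at 73.3% and 77.1%. Between 1000 and 500 bases before it, Myh4 was at 35.5% and 38.8% and the 1 listed position of Myh1 at 4.00% and 4.19%.

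The starts of Myh8 and Myh7 had an edge. Myh8 was at 18.7% in young cells against 20.4% in old over the 500 bases before the start and at 73.2% and 74.9% over the 500 bases after it. Myh7 was at 11.7% and 14.2% before and at 90.1% and 91.7% after. The 8 listed cytosines within the printed upstream stretch of Myh7 were all at 11.7% in young cells against 14.2% in old, and the 12 of Myh8 ran from 12.5% to 24.3% in young cells and from 14.3% to 28.8% in old. Myh7b, the slow-type chain, was at 34.6% and 32.6% before and 62.9% and 64.1% after the start, with the lowest position after it still at 39.7% in young cells. Myh3 had no such edge, at 78.8% and 78.1% before and 84.5% and 80.1% after the start. Myh13 was at 67.3% and 75.1% before and at 91.7% and 91.5% after.

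The lowest levels of Myh3 lay inside the gene and not at its start. Low regions were defined as at least 5 consecutive positions, no more than 200 bases apart, each with a mean of both ages under 50%. A region of 23 positions at 3042 to 3448 bases into Myh3 (chr11:67081342-67081748) was at 10.2% in young cells against 9.66% in old. Another at chr11:67085275-67085751 was at 14.2% and 14.0%. Between them, 59 positions at chr11:67083903-67084619 were at 38.8% and 38.3%. In all, 20.5% of the positions of Myh3 were in low regions, against 2.66% in Myh8, 7.48% in Myh1 and 12.9% in Myh4, while the median over all genes was 25.6%.

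Inside Myh13, low regions began 19748 bases after the start and ran on to the end of the gene. The region at chr11:67357731-67358744, with 35 positions, was at 21.4% in young cells against 17.6% in old, and the region at chr11:67346851-67347037 was at 21.5% and 16.8%. At the end of Myh13, chr11:67371362-67371699 was at 35.8% and 45.5%. Myh4 had 4 low regions and the old value was higher in each. The widest difference among them, 24.0% in young against 33.8% in old cells, was at chr11:67234265-67234376, in the stretch between Myh1 and Myh4. The regions inside Myh4 were at 31.7% and 35.6% and at 28.3% and 33.6%.

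On chromosome 14, a region before the start of Myh7 at chr14:54994741-54994865 was at 11.7% and 14.2%, and a further region upstream at chr14:54997538-54997765 was at 13.9% and 14.2%. Upstream of the RefSeq start used for Myh6, chr14:54967426-54968332 was at 33.1% in young cells against 40.1% in old. In Myh7b, 46 positions at chr2:155613082-155613917 were at 10.1% and 9.66%, and 96 positions at chr2:155629103-155630009 were at 12.6% and 13.2%. These were the deepest low regions of Myh7b and their levels differed by less than 1 point between the ages. Over all members there were 61 low regions, of which 38 were higher and 23 lower in old cells, with differences from -8.90 to 9.85 points and a median of 1.65 points. Over the genome, 256780 such regions had a median difference of -0.0307 points, with 127083 higher and 129656 lower in old cells. None of the 61 member regions had 2 times the median p under 0.05, and 1667 of the 256780 regions of the genome did.

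Single cytosines were tested by the authors, and few in the members passed. In the authors' deposited table, 8 of 8281 positions had an FDR under 0.05, or 0.0966%, against a background of 0.236% of all positions. An FDR under 0.01 was given there for 6 of them, against a background of 0.156%. Old cells were higher at 4 of the 8, or 0.0483% of the members' positions against a background of 0.132%, and lower at the other 4, against a background of 0.105%. At a p below 0.05 the count in the authors' deposited table was 70 positions, or 0.845%, against 2.61% of all positions. The median p was 0.740 in the members and 0.688 in the genome. The fast gene Myh4, the perinatal Myh8, the heart gene Myh6 and Myh7b had no cytosine below the FDR threshold.

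The 8 cytosines were scattered over Myh3, Myh2, Myh1, Myh13 and Myh7. None was within 1 kb of a start, where each member had 30 to 56 of the 8281 positions. With so small a part of the positions there, this absence is not a result about the starts. In Myh2, position 67172546 of chromosome 11, 1519 bases after the start, was at 92.5% in young cells against 55.8% in old, with p = 9.905e-07 in the authors' deposited table. This was the largest difference of the 8. Also in Myh2, position 67188016 was at 95.2% and 76.8%. In Myh1, position 67208196 was at 66.0% in young cells against 85.0% in old (p = 7.143e-07 in the authors' deposited table), and position 67225107, just past the gene, at 85.9% and 74.9%. The lowest p of the 8 in the authors' deposited table, 4.279e-07, belonged to position 67105426 past the end of Myh3, at 47.8% and 68.3%. In Myh13, position 67357689 was at 59.2% and 41.7%, and position 67365726 at 77.4% and 94.0%. Upstream of Myh7, position 54998632 of chromosome 14 was at 73.3% and 95.3%.

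**Figure D5:**
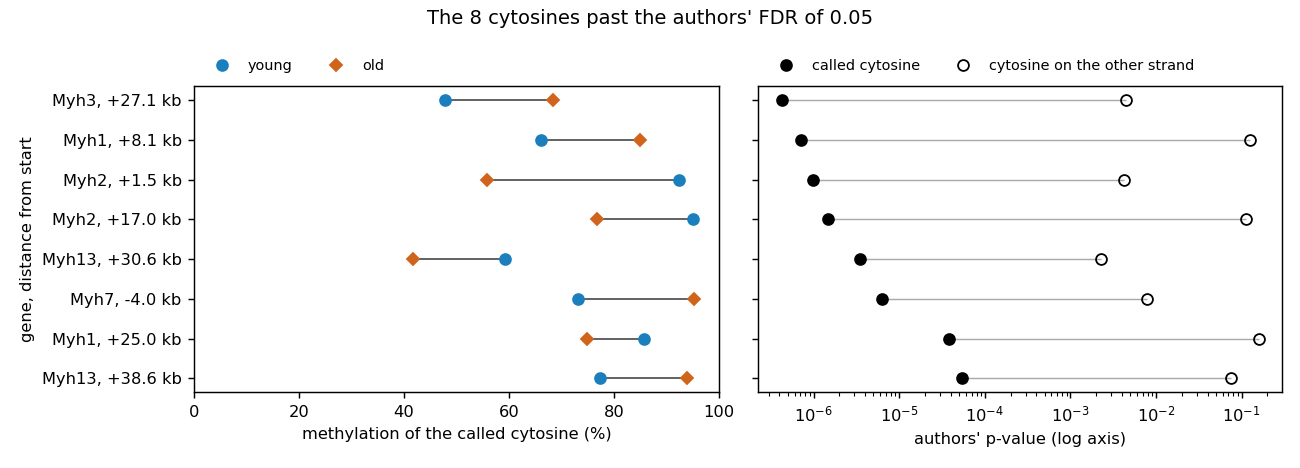
Left, methylation (%) of the 8 called cytosines in young (circles) and old (diamonds) cells, by gene and distance from its start (kb); right, the authors' p-value on a log axis for each called cytosine (filled) and its partner on the other strand (open). The partners' p-values, 0.00227 to 0.158, all lie to the right of those of the called cytosines.

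Each of the 8 cytosines had its partner on the other strand of the same CpG in the table. The partner had the same young and old level for 7 of them, and none of the partners was below the FDR of 0.05. The partners' p-values ran from 0.00227 to 0.158 in the authors' deposited table, and 4 of 8 were below 0.05. The authors' dispersion, a number given beside each level, takes 1 value far more often than others (0.0438 in young, 0.0434 in old). Of the 8 called cytosines, 7 carried that value in one age or both, and 1 called cytosine was left once such positions were removed. Over the genome, 91.7% of the called positions carried that value, although 24.0% of all positions did, and 18.3% of the members' positions. How the dispersion was defined is not stated in the sources used here, and its part in the calls was not tested.

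Between the single cytosine and the gene, 1-kb tiles gave no call in the members. Of 285 tiles with at least 10 positions, 0 were called, against 8.12e-05% of 1231304 tiles. At an unadjusted p under 0.05 the count was 0 of the member tiles and 1309 of all tiles, or 0.106%. Old cells were higher in 159 of the member tiles, or 55.8%, against 56.1% of all tiles. A difference of 10 points or more was present in 1 member tile, past the end of Myh4 (chr11:67262001-67263000), at 56.2% in young cells against 66.6% in old. That is 0.351% of the member tiles, against 1.29% of all tiles, and no member tile was lower in old cells by as much, against 0.837% of all tiles.

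The dispersion that the authors deposited beside each level (phi, a number between 0 and 1) was similar between the ages in the members. Its median was 0.0438 in young cells against 0.0435 in old. The share of positions with a dispersion above 0.1 was 4.47% in young cells against 4.999% in old in the members, against 2.33% and 2.79% in the genome. Myh7b had the highest share, 8.82% in young cells against 9.72% in old, and Myh6 and Myh7 followed with 6.13% and 4.82% in young cells. The fast chains Myh1 and Myh2 had the lowest, 1.76% and 0.932% in young cells. Old cells had the lower share in Myh1 (1.17%) and Myh4 (2.94%, against 3.22% in young cells) and the higher share in the other 7 genes.

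Of the 9 genes, 3 carry a microRNA. These small RNAs of muscle are made from introns of the host transcript and bind their targets through the seed, bases 2 to 8 of the mature strand, printed here in capitals from RefSeq, 5′ to 3′, to show which of them share it.
miR-208a-3p: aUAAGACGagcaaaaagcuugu
miR-208b-3p: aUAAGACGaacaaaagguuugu
miR-499-5p: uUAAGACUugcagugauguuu
The microRNAs of the heart genes, Mir208a in Myh6 and Mir208b in Myh7, have 1 seed in common, and the seed of Mir499 in Myh7b is not identical to it. Over the hairpin and 1 kb on each side, Mir208a (chr14:54949060-54949142, minus strand) was at 73.4% in young cells against 72.9% in old, Mir208b (chr14:54975700-54975776, minus strand) at 70.9% and 73.3%, and Mir499 (chr2:155622880-155622958, plus strand) at 54.3% and 54.4%. Mir499 overlaps a low region of 24 positions in Myh7b, at chr2:155622607-155623028, that was at 26.2% in young cells against 33.1% in old. Wider differences in Myh7b were in low regions with fewer positions. At chr2:155621748-155622031, 9 positions were at 50.3% in young cells against 41.4% in old. At chr2:155616878-155617176, 10 positions were at 37.3% and 44.9%. No cytosine within the Mir499 hairpin itself was listed. By the median test, 2 times the median p was 1 for each of the 3 microRNA windows and 0.642 for the low region over Mir499.

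Genes whose products work with the heavy chains were set beside them. The list of 19 held light chains, myosin-binding proteins, light chain kinases, factors of myosin folding and turnover (Unc45b, Smyd1, Trim63) and the M-band genes Myom1, Myom2 and Myom3. Of these 19 genes, 0 were called by the median test over gene windows, where the background was 0%. Their median was 62.0% in young cells against 62.5% in old, and 12 were higher and 7 lower in old cells. At the 17 starts of the list that were measured, 5 were higher and 12 lower in old cells. Over all genes, old cells were higher in 73.9% of windows and at 45.7% of starts. The median of the 17 starts was 53.4% in young cells against 52.8% in old, and 0 were called. Over gene windows, the widest differences were those of Mybph, Myl1 and Myl7. Mybph, a thick filament protein, was at 67.7% in young cells against 69.4% in old. Myl1, the fast essential light chain, was at 69.9% and 68.3%, and Myl7, the atrial regulatory light chain, at 53.8% and 52.6%. Among the starts, the widest difference was that of Myl1, at 59.1% in young cells against 48.5% in old. It was -10.6 points, with 2 times the median p at 0.237. The nonmuscle heavy chains, which serve cell shape and division, had far lower levels at the start than the members, with Myh9 at 3.42% and 3.18% and Myh10 at 2.26% and 2.25%. Myh14 was at 8.44% and 8.78%. The start windows of Myh9, Myh10 and Myh14 held 288, 196 and 102 listed positions, against 30 to 56 for the members. Over all genes, starts with more than 20 CpGs had a median of 4.13% in young cells. The part of CpG number in this difference was not tested. Myh15, another heavy chain outside the 9, had a start at 76.8% and 78.7% over 14 positions.

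The cell type was checked by methylation at the starts of marker genes, since no transcript was measured. Of 6 measured stem cell markers, 5 were under 20% at both ages, and Pax7, the defining factor of these cells, was at 3.35% in young cells against 3.41% in old. None of 6 fibre markers was under 20% at either age, but Acta1 was close to it, at 21.1% in young cells against 21.3% in old. That is below the stem cell marker Cdh15, at 24.1% and 25.5%. The fibre marker Ckm was at 39.7% and 38.9%. None of 4 blood markers was under 20% at either age. At both ages, 2 of 3 endothelial markers and the single fibro-adipogenic marker measured, Pdgfra, were under 20%. A share of other cells in the sort was not tested.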

How the data were processed

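Levels came from the single deposited table of the series. Per the file headers it gives, for each cytosine, a methylation fraction (mu) and a dispersion (phi, a score between 0 and 1) for young and for old cells, with a p-value and an FDR of old against young. Per the submitters' processing notes, the authors used Trim Galore, Bismark and edgeR with builds mm10 and GRCm38. Their versions, any smoothing or pooling of neighbouring cytosines, the test, the coverage behind a position and the treatment of reads that match several genes were not given in the sources used here. Exons of the heavy chain genes are similar, and reads from them may be placed on a related gene. Runs of equal levels show that neighbouring positions are not independent, and sharing values between neighbours can flatten narrow differences.

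Fractions were averaged in percent with equal weight per listed cytosine, on chromosomes 1 to 19 and X. Listed positions were moved by 1 to count from 1, after which 158141 of 158141 positions within RefSeq promoter sequences of chromosomes 2, 11 and 14 fell in a CpG. Gene spans, starts and sequences came from RefSeq tables of GRCm38.p6, the assembly of mm10. A gene, start or 1-kb tile with at least 10 positions was given a p of 2 times the median of its deposited p-values, with Benjamini-Hochberg adjustment over all such features and calls at 0.05. In a test on simulated data for 1609 gene windows of chromosome 11, a shift of 30 points with a standard error of 5 points was recovered in 100% of 200 windows when 70% of positions shifted and in 0% when 30% did. With a standard error of 10 points it was recovered in 0%, and that error is unknown for the deposited levels. Smaller shifts were not simulated, and the largest difference of a member window was 1.37 points. The simulation thus cannot show whether a difference of that size would be called. Tests over animals, leaving out an animal, a replicate block and a coverage minimum could not be run on group values.

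All 9 members are described. Among the 19 partner genes of the heavy chains (light chains, binding proteins, kinases, folding and turnover, M band), the 3 with the widest difference over the gene window are named. Members, lists and tests were chosen with earlier results of these data known. Python 3.11.15, numpy 2.4.6 and pandas 2.3.3 were used.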

Additional observations from a re-analysis of the deposited data

How the results depend on the processing

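Of 63 recomputed differences of gene windows, 56 kept their direction and 7 did not. Of 36 at starts, 34 kept it and 2 did not. Some of these recomputations left the values as they were. A minimum of 20 positions changed no member window, because each held more positions than that. Taking the last start listed for a gene changed the difference of Myh7 alone, from 2.29 to 2.04 points. The counts of kept directions include these unchanged values, which do not test the direction. With the genome-wide difference taken off, an alternative chosen after seeing the data, Myh3 was at -0.221 points, Myh8 at -0.0545, Myh13 at -0.0655 and Myh6 at -0.273, and 4 members were higher in old cells. With the median over positions, Myh13 was at -0.13 points, Myh6 at -0.18 and Myh7 at 0.08. The start of Myh3 was at 1.21 points with a window of 2000 bp, and that of Myh8 at -0.0690 once positions with the most common dispersion were left out. The Cauchy combination called 5 members and 8868 genes by window, and 187 starts. Called cytosines numbered 1 without the most common dispersion value, 5 without the flanks and 0 where both cytosines of a CpG had to be called, which was also chosen after seeing the data. Low regions numbered 28 under 30%, with 15 higher in old cells. Of the 44 low regions with at least 10 positions, 24 were higher, against 38 of 61 as first defined. Without the most common dispersion value its median was 0.0444 in young and 0.0441 in old cells. In each case the cause was not tested.

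No paired analysis was possible because the deposited table holds 1 value per age and none per animal. For the same reason no animal was left out and no coverage minimum was set. The spread between animals and the depth behind each level are unknown for every comparison.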

Other observations

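The stretch between Myh3 and Myh2 holds no heavy chain gene and was outside the windows above. Over 1110 positions (chr11:67107292-67166026) it was at 70.7% in young cells against 71.1% in old, and the authors' deposited table gives no cytosine there an FDR under 0.05. It holds the lncRNA gene 2310065F04Rik, whose start was at 26.9% in young cells against 27.8% in old, and Gm31285, whose start was at 54.9% and 55.9%. Of the stretches between members, 1 low region of 53 positions at chr11:67125081-67125907 was at 12.6% at both ages. Another at chr11:67153432-67153654 was at 32.4% and 44.8%, with 2 times the median p at 0.22. Between Myh8 and Myh13, 55 positions at chr11:67313922-67315066 were at 20.8% and 22.2%.

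Antisense transcripts run against 2 of the loci. Myhas, named as an antisense RNA of the heavy chain genes, covers most of the stretch from the end of Myh1 to Myh4, and its start was at 38.8% in young cells against 41.2% in old. It covers the low region of Myh4 at 24.0% and 33.8%. Mhrt, a heart lncRNA of the Myh6 and Myh7 locus, had a start at 64.2% and 62.3% and a body at 77.1% and 75.6%. Among the nearest genes beyond the windows, Sco1 was at 5.87% in young cells against 5.93% in old at its start and Ngdn at 3.33% and 2.87%. Glp2r, on the far side of Myh13, was at 77.7% and 79.0%.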
